A study of Saccharomyces cerevisiae with 24 samples.

Results

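The nuclear genes of the tricarboxylic acid (TCA) cycle and the respiratory chain were followed in budding yeast exposed to methyl methanesulfonate (MMS), an agent that alkylates DNA and also RNA. The 50 members were taken by gene identifier from 5912 quantified genes. They comprised 12 TCA cycle genes, 4 genes of complex II, 9 of complex III, 2 for cytochrome c, 9 of complex IV, 11 of ATP synthase and 3 NADH dehydrogenases. All 50 members were among the 5824 genes that passed the filter on low counts. The cells were haploid BY4741 MATa yeast grown in YPD, a rich glucose medium, and they were either left untreated or given 0.1% MMS for 1 h. The 4 strains were wild type, gcn2Δ::KAN, gcn4Δ::KAN and mbf1Δ::NAT, all in the same BY4741 background, so every group also carries the auxotrophic mutations of that background. Each of the 8 groups held 3 libraries described as biological replicates. How many independent isolates each deletion strain came from is not given in the sources used here.

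The TCA cycle oxidizes acetyl-CoA in the mitochondrial matrix and hands its electrons to the respiratory chain. Budding yeast has no proton-pumping complex I. Single-polypeptide NADH dehydrogenases facing the matrix (Ndi1) or the cytosolic side (Nde1 and Nde2) feed electrons to ubiquinone together with succinate dehydrogenase, which is complex II. Complex III then reduces cytochrome c, complex IV passes the electrons to oxygen, and ATP synthase uses the resulting proton gradient. In glucose medium many of these genes are repressed and are raised by the Hap2/3/4/5 activator when cells turn to respiration, while the retrograde factors Rtg1 and Rtg3 act on the first steps of the cycle. Gcn2 is the eIF2 kinase that raises translation of the transcription factor Gcn4, and Mbf1 is a coactivator of Gcn4. The design asks how the MMS response depends on each of these proteins.

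Libraries held 13518115 to 28366473 estimated counts. The labels of the strains were checked by the transcript of the deleted gene, as normalized counts (CPM, the count as a share of the scaled library total). GCN2 had 0.497 to 1.22 CPM in gcn2Δ against 61.3 to 75.9 in wild type, MBF1 had 0.0731 to 2.82 in mbf1Δ against 262 to 740, and GCN4 had 22.2 to 30.9 in gcn4Δ against 557 to 1010. The MATa genes STE2 and MFA2 had 449 to 1000 and 228 to 654 CPM in the 24 libraries, against at most 0.537 for the alpha-factor gene MF(ALPHA)1 and 11.9 for the a-factor receptor gene STE3. Some libraries stood apart. Genes of the ribosomal RNA locus took 0.367% to 1.51% of the counts in the 6 gcn4Δ libraries and 7.4% to 19.5% elsewhere. Untreated wild type replicate 3 had 11.6% against 18.6% and 17.3% in the other libraries of its group. MMS-treated mbf1Δ replicate 1 had 9.57% against 19.2% and 19.5%, and untreated mbf1Δ replicate 1 had 8.86% against 14% and 14.9%. The gcn4Δ libraries also had almost no counts of several mitochondrially encoded subunits, given below with the mitochondrial transcripts.

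In wild type cells MMS split the pathway. Genes of the TCA cycle and of complex II rose, while genes of complexes III and IV and of ATP synthase mostly fell, measured against the bulk of the transcriptome. Of the 50 members, 16 rose, 25 fell and 9 did not pass the test (edgeR's quasi-likelihood test, Benjamini-Hochberg adjusted p under 0.05). MMS changed most genes, with 42.0% of all tested genes called higher and 41.2% lower, so these totals are close to the background and the order lies in which members moved. In bulk RNA, fewer cells with a transcript and less of it per cell cannot be told apart. The median log2 change was -0.21 over the members and 0.02 over all genes. It was 0.81 for the TCA cycle, 0.59 for complex II, -0.34 for complex III, -0.36 for ATP synthase and -0.86 for complex IV. CPM and fold changes here are scaled by TMM, which sets the change of most genes near 0. Scaled by library totals instead, all genes shift up by 0.59 and the members are called 29 higher and 7 lower. Among the 7 are CYC1, NDE1, COX7, COX5A, COX4 and QCR6, while most falls of complex III and ATP synthase genes are then near 0 or above it.

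**Figure D1:**
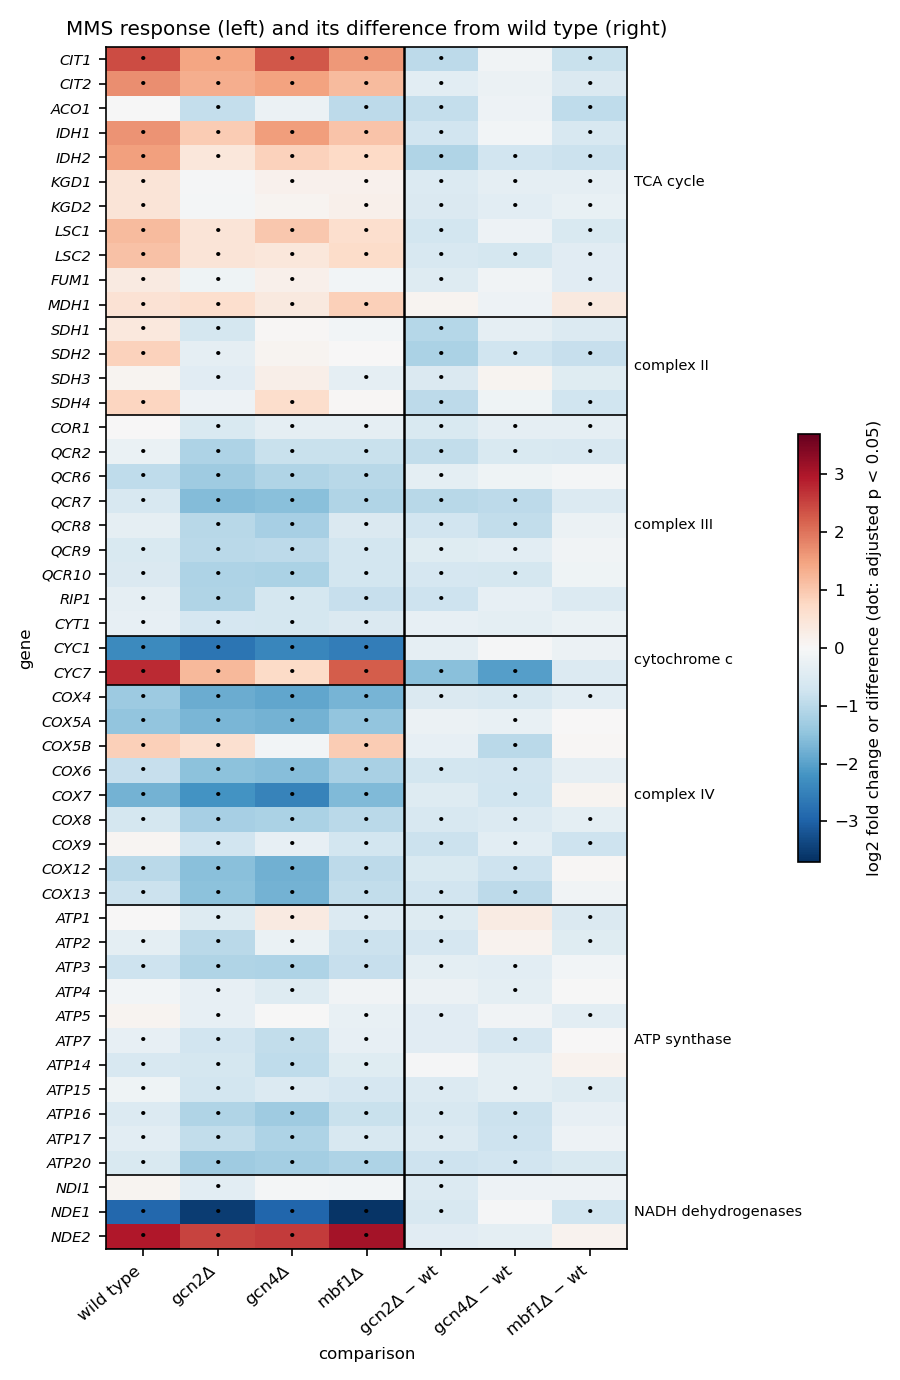
Log2 fold change on MMS in the 4 strains (left 4 columns) and mutant minus wild type differences of that change (right 3 columns) for 49 of the 50 members, ordered by complex, with dots on values that passed the test. Red rows in the TCA cycle and blue rows in complex IV show the split in wild type, where 10 of 12 TCA cycle genes rose and 7 of 9 complex IV genes fell, and the right columns are mostly blue.

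A ratio taken within each library does not depend on the scaling between libraries. The summed TPM (transcript abundance corrected for gene length) of the 12 TCA cycle genes were 1.43 to 1.69 times those of the 9 complex IV genes in untreated wild type and 5.16 to 5.41 times after MMS. In gcn2Δ the ratio went from 1.44 to 1.56 untreated to 4.43 to 5.4 treated. In mbf1Δ it went from 1.44 to 1.62 to 3.57 to 4.83, and in gcn4Δ from 1.38 to 1.55 to 6.02 to 6.3. The untreated groups overlapped one another, no treated library reached down to an untreated one, and the treated gcn4Δ libraries lay above all other treated libraries. The ratio sets short genes against longer ones. The gene models of complex IV have 580 to 868 bases, and those of the TCA cycle have 1390 or more. Short genes as a whole moved down on MMS, as given below, and the part of length in this ratio was not tested. In untreated wild type the summed TPM of ATP synthase genes was the highest of the complexes. ATP synthase genes had 2020 ± 242 TPM (SD, n = 3) and TCA cycle genes 1180 ± 65.7. Complex IV genes had 663.6 to 873.9 TPM and complex III genes 621.6 to 820.2 TPM, which overlapped. Complex II had 319 ± 10.7, the NADH dehydrogenases 267 ± 15.6, and cytochrome c 44.5 ± 9.88. After MMS the TCA cycle genes reached 3860 ± 77.7 TPM and complex IV had 727 ± 7.61. The summed TPM of ATP synthase was then 2610 ± 24.9 and that of complex III 797 ± 14.7, on a scale on which the median of all genes moved up by 0.55 (log2).

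Within the TCA cycle, 10 of 12 genes rose in wild type and 1 fell. CIT1 (YNR001C), the mitochondrial citrate synthase that starts the cycle, had 115, 137 and 116 CPM in untreated libraries and 633, 673 and 659 CPM after MMS. The groups were far apart, and the log2 rise was 2.42 (SE 0.077, edgeR adjusted p = 2.35e-18). CIT2 (YCR005C), the peroxisomal citrate synthase that is the classic reporter of retrograde signalling, went from 47.8, 48.4 and 44.4 to 141, 157 and 162 CPM, a rise of 1.71 (SE 0.11, edgeR adjusted p = 6.58e-13). Both citrate synthase genes rose in every treated library, CIT1 more, and the CIT2 to CIT1 ratio of TPM was 0.412 to 0.488 untreated and 0.255 to 0.28 treated. IDH1 (YNL037C) and IDH2 (YOR136W), the subunits of the NAD-dependent isocitrate dehydrogenase, rose by 1.65 (SE 0.12) and 1.53 (SE 0.1). LSC1 (YOR142W) and LSC2 (YGR244C), the subunits of succinyl-CoA ligase, rose by 1.18 (SE 0.1) and 1.08 (SE 0.06). Smaller rises were those of MDH1 (YKL085W), the mitochondrial malate dehydrogenase (0.54), KGD1 and KGD2 of the 2-oxoglutarate dehydrogenase complex (0.49 and 0.47) and FUM1, fumarase (0.32). ACO1 (YLR304C), the main aconitase, had 713, 768 and 603 CPM untreated and 741, 645 and 682 CPM treated, overlapping groups with a log2 change of -0.01 (SE 0.13, edgeR adjusted p = 0.932).

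Complex II, which also belongs to the cycle, moved with it. SDH2 (YLL041C), the iron-sulfur subunit, had 42.6, 47.7 and 43.8 CPM untreated and 79.4, 85.5 and 76.1 CPM treated, a rise of 0.85 (SE 0.081, edgeR adjusted p = 1.89e-09). SDH4 (YDR178W), a membrane anchor, rose by 0.79 (SE 0.14) and SDH1 (YKL148C), the flavoprotein, by 0.39 (SE 0.13), while SDH3 (YKL141W), the other anchor, had a change of 0.11 that did not pass (edgeR adjusted p = 0.428). In complex III 7 of 9 genes fell, from QCR6 (-0.95, SE 0.1) to QCR2, a core protein (-0.25, SE 0.081). Between them lay QCR7 (-0.59), QCR9 (-0.56), QCR10 (-0.53), the Rieske iron-sulfur protein gene RIP1 (-0.34) and the cytochrome c1 gene CYT1 (-0.31). COR1, the other core protein, had 0.01, and QCR8 had -0.32 (edgeR adjusted p = 0.0752). In ATP synthase 8 of 11 genes fell, all by less than 2-fold. ATP3 (YBR039W), the gamma subunit of the catalytic part, fell the most, by 0.76 (SE 0.067), and ATP15 (YPL271W), the epsilon subunit, the least, by 0.16 (SE 0.07). ATP2 (YJR121W), the beta subunit, fell by 0.36, whereas ATP1, the alpha subunit, ATP4 and ATP5, both of the stator, had 0.02, -0.10 and 0.11 without a call. The calls of ATP15, RIP1 and CYT1 were lost on leaving out any of 5, 3 and 2 of the 24 libraries. These modest falls of complex III and ATP synthase rest on the TMM scaling, as stated above.

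Alternative forms of one protein moved in opposite directions in wild type for cytochrome c, subunit 5 of complex IV and the external NADH dehydrogenases. Cytochrome c is encoded by CYC1, the main aerobic form, and CYC7, the minor form that is favoured at low oxygen and under stress. Subunit 5 of complex IV is made from COX5A in air and from COX5B at low oxygen. The external NADH dehydrogenases NDE1 and NDE2 oxidize cytosolic NADH. The promoters of these 6 genes, from 250 bases before to 50 bases after the annotated gene start, were read from the RefSeq R64 genome and are shown because the members of each pair moved in opposite directions on MMS. The annotated start of these genes is the start codon, so each window includes transcribed leader. CYC1 lies at chrX:526085-526384 on the plus strand, CYC7 at chrV:79928-80227 on the minus strand, COX5A at chrXIV:531475-531774 on the plus strand, COX5B at chrIX:154972-155271 on the plus strand, NDE1 at chrXIII:556426-556725 on the minus strand and NDE2 at chrIV:302961-303260 on the plus strand. Each is written 5′ to 3′ on the gene's own strand. Capitals mark matches on either strand to CCAAT (the Hap2/3/4/5 motif), AGGGG (the stress response element of Msn2 and Msn4), GTCAC (the Rtg1/Rtg3 R box), TGACTC (the Gcn4 core) or the Hap1 motif.
CYC1: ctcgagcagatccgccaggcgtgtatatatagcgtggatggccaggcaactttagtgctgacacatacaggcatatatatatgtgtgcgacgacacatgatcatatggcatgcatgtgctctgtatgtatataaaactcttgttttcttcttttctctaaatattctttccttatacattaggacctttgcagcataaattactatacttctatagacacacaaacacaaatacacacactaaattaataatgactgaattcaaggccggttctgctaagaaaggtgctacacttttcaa
CYC7: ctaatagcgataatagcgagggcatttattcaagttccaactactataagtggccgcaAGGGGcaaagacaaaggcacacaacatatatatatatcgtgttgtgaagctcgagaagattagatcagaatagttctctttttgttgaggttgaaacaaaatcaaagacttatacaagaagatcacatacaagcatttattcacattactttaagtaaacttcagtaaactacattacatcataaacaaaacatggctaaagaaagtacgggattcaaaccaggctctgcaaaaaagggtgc
COX5A: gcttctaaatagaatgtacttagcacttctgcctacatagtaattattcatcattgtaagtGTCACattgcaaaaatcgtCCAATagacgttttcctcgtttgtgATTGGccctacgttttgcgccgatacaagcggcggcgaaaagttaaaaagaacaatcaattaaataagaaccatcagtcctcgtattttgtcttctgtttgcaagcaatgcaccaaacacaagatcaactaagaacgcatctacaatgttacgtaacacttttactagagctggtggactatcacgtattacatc
COX5B: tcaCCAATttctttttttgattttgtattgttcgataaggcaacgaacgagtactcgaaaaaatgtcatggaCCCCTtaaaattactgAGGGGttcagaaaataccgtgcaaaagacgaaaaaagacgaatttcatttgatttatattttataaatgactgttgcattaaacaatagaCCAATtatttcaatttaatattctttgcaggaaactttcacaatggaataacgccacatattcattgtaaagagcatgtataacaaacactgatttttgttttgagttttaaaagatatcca
NDE1: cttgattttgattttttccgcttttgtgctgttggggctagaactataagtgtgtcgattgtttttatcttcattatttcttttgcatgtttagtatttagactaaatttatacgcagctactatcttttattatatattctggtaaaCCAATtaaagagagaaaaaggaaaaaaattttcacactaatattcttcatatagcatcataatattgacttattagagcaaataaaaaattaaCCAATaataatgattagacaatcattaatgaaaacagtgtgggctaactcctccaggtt
NDE2: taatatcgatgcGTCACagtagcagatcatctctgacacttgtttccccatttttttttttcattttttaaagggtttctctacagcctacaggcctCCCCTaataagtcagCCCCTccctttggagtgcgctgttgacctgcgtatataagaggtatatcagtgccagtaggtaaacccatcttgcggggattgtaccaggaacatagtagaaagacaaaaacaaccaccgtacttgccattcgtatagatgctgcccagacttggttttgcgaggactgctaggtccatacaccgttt

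In these windows AGGGG matched once upstream of CYC7 and 2 times each upstream of COX5B and NDE2, the members that rose, and not upstream of CYC1, COX5A or NDE1, the members that fell. CCAAT matched 2 times each in COX5A, COX5B and NDE1, thus on both sides of that division. GTCAC matched once in COX5A and once in NDE2. A match of a few letters is a description of the sequence. Sequence further upstream was not searched, so a window without a match, such as that of CYC1, does not show that the gene lacks such sites. Over all members, CCAAT was found in 37 of 50 windows (74.0%) against 43.9% of 5889 promoters of the same length. AGGGG was found in 21 (42.0%) against 21.9%, GTCAC in 18 (36.0%) against 26.8%, TGACTC in 4 (8.0%) against 8.13%, and the Hap1 motif in 1, that of QCR6 (2.0% against 0.136%). CCAAT was most frequent in ATP synthase (10 of 11), complex IV (8 of 9), complex III (7 of 9) and complex II (4 of 4), and was in 6 of 12 TCA cycle windows. The division of AGGGG seen in the 6 genes did not hold over the other members. AGGGG was in 5 of 9 complex III windows, where 0 genes rose in wild type, and in 3 of 12 TCA cycle windows, where 10 rose. QCR6, COX7 and ATP2 fell and had a match, as did CIT1, which rose, while IDH1, IDH2 and MDH1 rose without a match.

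CYC1 (YJR048W) had 26.6, 28.8 and 32.8 CPM in untreated wild type and 5.67, 5.46 and 6.07 CPM after MMS. It fell by 2.36 (SE 0.13, edgeR adjusted p = 9.58e-14). CYC7 (YEL039C) had 1.2, 1.42 and 1.42 CPM and then 8.72, 9.42 and 9.46 CPM, a rise of 2.75 (SE 0.21, edgeR adjusted p = 2.7e-11). No library of one treatment overlapped the other for either gene, and the order of the forms turned over. The TPM of CYC7 was 0.0576 to 0.0667 times that of CYC1 untreated and 1.96 to 2.14 times treated. The coding sequences share 79.4% identity over 315 bases, and both gene models overlap neighbouring models at their flanks (24.8% and 29.8% of their length). COX5A (YNL052W) went from 91.6, 104 and 96 CPM to 33.6, 35.4 and 36.3 CPM and fell by 1.47 (SE 0.075, edgeR adjusted p = 1.72e-14). COX5B (YIL111W) went from 18.5, 17.8 and 16.1 to 32.7, 32.6 and 31.8 CPM and rose by 0.89 (SE 0.11, edgeR adjusted p = 1.34e-07). The treated levels of this pair were near equal, with a COX5B to COX5A ratio of TPM of 0.199 to 0.237 untreated and 0.994 to 1.12 treated. NDE1 (YMR145C) dropped from 595, 656 and 530 CPM to 80.3, 77.7 and 80.7 CPM, a log2 change of -2.9 (SE 0.11, edgeR adjusted p = 4.74e-17). NDE2 (YDL085W) rose from 3.3, 3.56 and 1.83 CPM to 21.2, 22.4 and 21.3 CPM, by 2.95 (SE 0.18, edgeR adjusted p = 9.05e-13). NDE1 nevertheless stayed the more abundant form, since the ratio of NDE2 to NDE1 was 0.00309 to 0.00491 untreated and 0.235 to 0.257 treated. NDI1 (YML120C), the internal enzyme, had 58.2, 71.3 and 52.2 CPM and then 68.3, 61.2 and 67.1 CPM, which overlapped (0.11, edgeR adjusted p = 0.36).

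**Figure D2:**
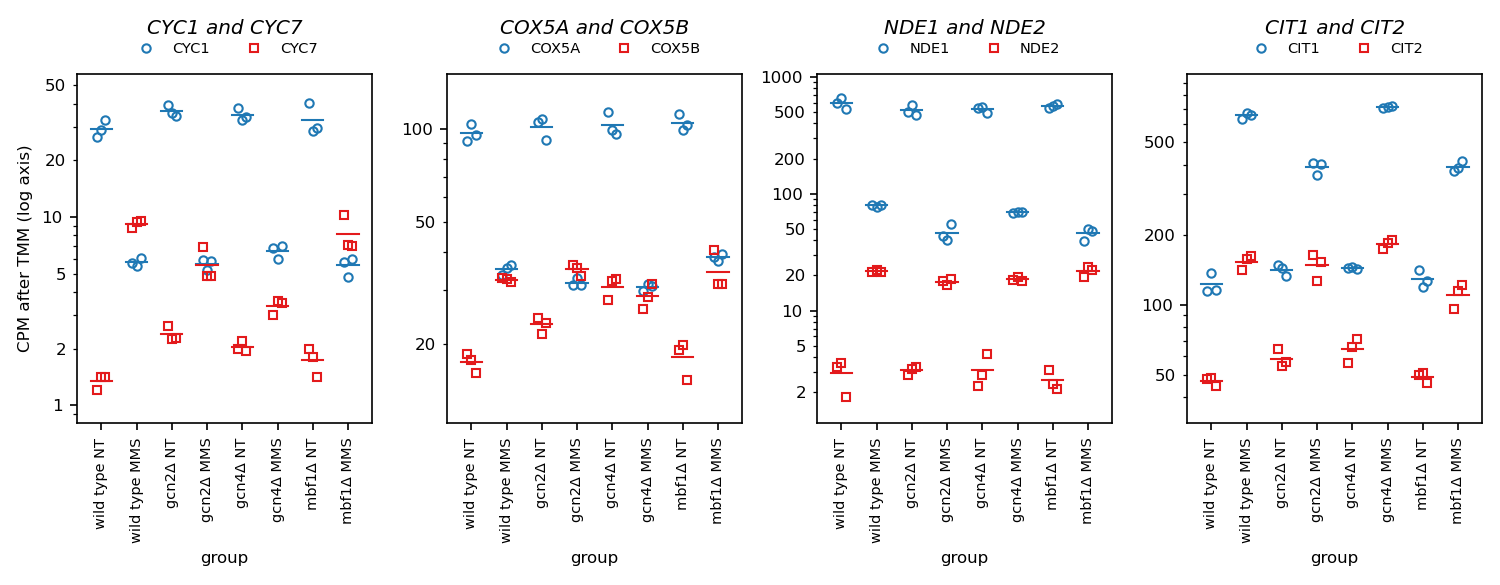
CPM after TMM scaling (log axis) of 4 pairs of alternative enzymes in each library of the 8 groups, with a short line at the group mean (n = 3, NT for untreated). CYC7 passed CYC1 in treated wild type (8.72 to 9.46 against 5.46 to 6.07 CPM) and stayed below it in treated gcn4Δ (3.03 to 3.56 against 5.95 to 6.99 CPM).

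Apart from COX5B, complex IV had no gene that rose in wild type. COX7 (YMR256C) had 20.6, 18.2 and 26.1 CPM untreated and 6.3, 6.19 and 7.11 CPM treated, and it fell by 1.74 (SE 0.16, edgeR adjusted p = 1.39e-09). COX4 fell by 1.33 (SE 0.065), COX12 by 1.01 (SE 0.17), COX6 by 0.86 (SE 0.12), COX13 by 0.79 (SE 0.16) and COX8 by 0.64 (SE 0.091). COX9 (YDL067C) had 90.6, 106 and 82.2 CPM and then 99.9, 94.4 and 99.1 CPM, with overlapping groups (0.08, edgeR adjusted p = 0.49). These genes encode nuclear subunits around the mitochondrially encoded core of cytochrome c oxidase.

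Short genes as a whole moved down on MMS, and many of the members that fell are short. The gene models, which in all 50 members are the coding length plus 400 bases, were under 900 bases for 21 members. In wild type those 21 had a median log2 change of -0.59, against -0.30 for all 908 short genes, and the 29 longer members had 0.11 against 0.07. Among the short members 17 fell and 2 rose, beside 46.9% and 30.7% of all short genes. Over all genes the interactions described next had no such shift, with a median of 0.06 for short genes and 0.03 for the others in gcn2Δ. The medians were 0.03 and -0.02 in gcn4Δ and 0.04 and 0.02 in mbf1Δ. Among the members the calls of the gcn4Δ and mbf1Δ interactions were divided by length, as given with gcn4Δ. Fitting with Salmon's effective lengths as an offset, an alternative chosen after seeing this, left 16 members higher and 25 lower in wild type. The part of gene length in the members' changes was not tested further.

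**Figure D3:**
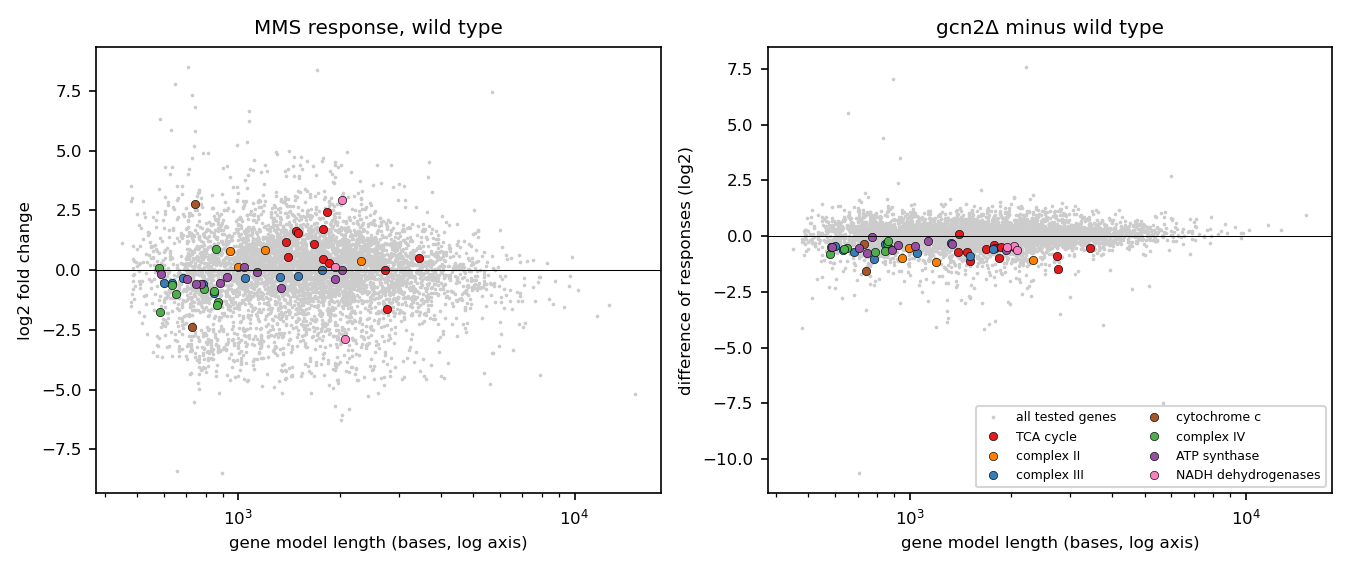
Log2 fold change on MMS in wild type (left) and difference between the gcn2Δ and wild type responses (right) against gene model length (log axis), with all tested genes in grey and the members coloured by complex. On the left the short members at 580 to 900 bases lie mostly below 0, with a median of -0.59, and on the right all members but MDH1 (0.1) lie below 0 at all lengths.

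The regulators of these genes were followed as a list of 10, of which 9 rose in wild type and 1 fell, beside 42.0% of all genes called higher and 41.2% lower. The exception was HAP4, the limiting activator subunit of the Hap complex. It had 143, 172 and 121 CPM untreated and 21.4, 20.5 and 26.3 CPM treated, a fall of 2.67 (SE 0.16, edgeR adjusted p = 2.22e-13), with groups far apart. HAP4 also fell in the mutants, with log2 changes of -2.61 in gcn2Δ, -2.71 in gcn4Δ and -2.91 in mbf1Δ, and none of its 3 interactions passed the test (0.07, -0.04 and -0.23, each with SE 0.21). The DNA-binding subunits HAP2, HAP3 and HAP5 rose by 0.87, 0.91 and 0.37. RTG3, of the retrograde pathway, rose from 19.7, 23.8 and 25.9 to 54.2, 57.7 and 52.2 CPM, by 1.23 (SE 0.094, edgeR adjusted p = 3.34e-11). Its partner RTG1 rose by 0.73, the sensor RTG2 by 0.61 and the negative regulator MKS1 by 0.48. ROX1, the repressor of hypoxic genes, rose by 0.77 and HAP1, the heme-responsive activator, by 0.21. BY4741 descends from S288C, whose HAP1 carries a Ty1 insertion.

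Other genes of the pathway were counted by lists, beside 42.0% of all genes called higher and 41.2% lower in wild type. Of 8 genes for pyruvate entry 4 rose and 1 fell in wild type. MPC3 and MPC2, subunits of the mitochondrial pyruvate carrier, rose by 1.91 and 1.55, and LPD1, the shared dihydrolipoamide dehydrogenase, fell by 0.13. Of 12 glyoxylate genes and extra isoforms 10 rose and 1 fell, with SHH4, a paralog of SDH4, at 2.5 and IDP2, the cytosolic NADP isocitrate dehydrogenase, at 1.61, while MDH2, the cytosolic malate dehydrogenase, fell by 1.23. All 4 assembly factors of complex II rose, SDH8 by 1.99 and SDH6 by 1.77. Assembly factors of complex IV were divided, with 10 of 20 higher and 8 lower. COX20, a chaperone of Cox2, rose by 1.83 and SCO2 by 1.1, and the copper chaperone genes COX17 and CMC1 fell by 2.19 and 1.01. For complex III and cytochrome c assembly 1 of 7 rose (CYT2, cytochrome c1 heme lyase, 0.92) and 2 fell (CBP6, -0.41, and BCS1, -0.31). For ATP synthase assembly 2 of 5 rose (ATP22, 0.63, and ATP10, 0.5) and 2 fell (ATP23, -0.97, and ATP11, -0.68). Among 6 further subunits and inhibitors, the inhibitor STF1 rose by 2.2 and INH1 by 1.33, while the subunit genes ATP19 and ATP18 fell by 1.54 and 1.23 and TIM11 by 0.47.

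Without Gcn2 the members stood lower after MMS. In gcn2Δ 10 members rose and 37 fell, with 41.4% of all genes called higher and 40.4% lower, and the median of the members was -0.69 against 0.03 for all genes. All 11 ATP synthase genes, all 9 of complex III and 8 of 9 in complex IV fell. The TCA cycle had 7 higher and 3 lower, and complex II 0 higher and 3 lower. The leading rises were those of NDE2 (2.51, SE 0.17), CIT1 (1.46, SE 0.074), CIT2 (1.33, SE 0.1), CYC7 (1.21, SE 0.18) and IDH1 (0.93, SE 0.12). Among the leading falls were those of NDE1 (-3.5, SE 0.11), CYC1 (-2.69, SE 0.12), COX7 (-2.21, SE 0.15) and COX4 (-1.85, SE 0.064). Scaled by library totals, the calls were 16 higher and 21 lower.

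The difference between the gcn2Δ and wild type responses, tested as an interaction, was lower for 39 members and higher for 0. Among all genes 17.3% were called lower and 18.6% higher. The median difference was -0.56, against 0.03 over all genes. At an unadjusted p under 0.05 the edgeR test gave 43 lower and 0 higher, and DESeq2 and limma called 37 and 38 lower and 0 higher. The difference ran through every complex, with 11 of 12 TCA cycle genes, 4 of 4 in complex II, 8 of 9 in complex III, 5 of 9 in complex IV and 8 of 11 in ATP synthase. MDH1 was the 1 TCA cycle gene outside it (0.1, edgeR adjusted p = 0.448). In gcn2Δ SDH2 had 50.9, 50.8 and 44.9 CPM untreated and 39.1, 36.9 and 40.4 CPM treated, so it fell in the mutant where it had risen in wild type (difference -1.18, SE 0.11, edgeR adjusted p = 3.81e-08). IDH2 went from 415, 369 and 379 to 498, 468 and 585 CPM in gcn2Δ and from 305, 311 and 288 to 890, 868 and 857 CPM in wild type. It thus rose in both strains, less in gcn2Δ (difference -1.12, SE 0.14, edgeR adjusted p = 1.57e-06). The differences of CYC7 (-1.54, SE 0.29) and SDH1 (-1.05, SE 0.18) were also among the largest 5. Untreated, CYC7 had 2.63, 2.25 and 2.27 CPM in gcn2Δ against 1.2 to 1.42 in wild type. Treated, it had 6.96, 4.84 and 4.84 CPM against 8.72 to 9.46. At these low levels its difference holds an untreated part, which was not called, as well as a treated one. For ACO1 the treated gcn2Δ libraries had 384, 367 and 479 CPM against 817, 724 and 745 CPM untreated, a fall that wild type did not show (difference -0.88, SE 0.18, edgeR adjusted p = 0.000475). CIT1 rose less (-0.96, SE 0.1), whereas the CIT2 difference (-0.38, SE 0.14, edgeR adjusted p = 0.0457) was at the threshold and lost its call on leaving out any of 17 of the 24 libraries. CYC1 (-0.33), COX5A (-0.22), COX5B (-0.3) and NDE2 (-0.43) did not pass, and NDE1 fell further (-0.6, SE 0.14).

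**Figure D4:**
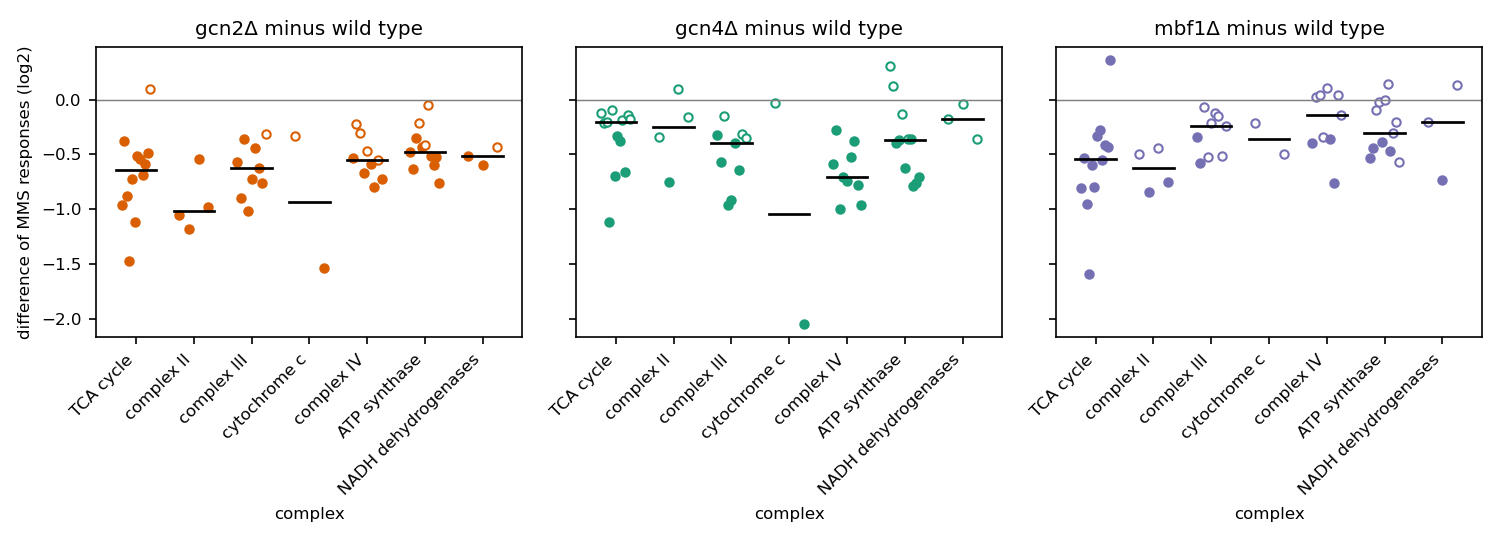
Difference of the MMS response between each deletion strain and wild type (log2) for every member by complex, filled where the test was passed, with a line at the median of the complex. Points lie below 0 in nearly all complexes in gcn2Δ, the median for complex IV is -0.71 in gcn4Δ and -0.14 in mbf1Δ, and the filled point above 0 in mbf1Δ is MDH1 (0.36).

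Without Mbf1, 12 members rose and 32 fell on MMS, with 42.7% of all genes called higher and 40.1% lower and a median of -0.54 for the members. The leading rises were NDE2 (3.08, SE 0.18), CYC7 (2.25, SE 0.19), CIT1 (1.61, SE 0.075), CIT2 (1.18, SE 0.1) and IDH1 (1.05, SE 0.12). Among the leading falls were NDE1 (-3.63, SE 0.11), CYC1 (-2.57, SE 0.13), COX4 (-1.73, SE 0.065) and COX7 (-1.63, SE 0.16). With library totals 21 were higher and 12 lower. The interaction was lower for 23 members and higher for 1, beside 12.4% and 11.6% of all genes, with a median of -0.37. In the TCA cycle 11 of 12 genes were lower and MDH1 was higher (0.36, SE 0.092, edgeR adjusted p = 0.00689). MDH1 had 122, 114 and 119 CPM in untreated mbf1Δ and 206, 231 and 224 CPM treated, and all 3 treated mbf1Δ libraries lay above the treated wild type range of 168 to 177 CPM. ACO1 (-0.95, SE 0.18), SDH2 (-0.84, SE 0.11), CIT1 (-0.81, SE 0.1) and IDH2 (-0.8, SE 0.14) were among the 5 largest differences, and CIT2 rose less as well (-0.53, SE 0.15). NDE1 fell further than in wild type (-0.73, SE 0.14). Complex IV had 3 of 9 lower, ATP synthase 4 of 11, complex III 2 of 9 and complex II 2 of 4. The alternative forms CYC1 (-0.21), CYC7 (-0.5, edgeR adjusted p = 0.252), COX5A (0.02), COX5B (0.04) and NDE2 (0.13) gave no call. Treated mbf1Δ replicate 1, a library with a low ribosomal RNA share, had 285 CPM of ACO1 against 439 and 432 in the others. It had 10.3 CPM of CYC7 against 7.13 and 6.99. Without it the interaction was lower for 23 members and higher for 1. KGD2, COR1, ATP1 and ATP2 then lost the call and QCR7, COX6, ATP16 and ATP20 gained it. Leaving out untreated mbf1Δ replicate 1, also with a low share, gave 19 lower and 1 higher.

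Without Gcn4, 13 members rose and 29 fell on MMS, with 40.7% of all genes called higher and 42.6% lower and a median of -0.49. The leading rises were NDE2 (2.59, SE 0.16), CIT1 (2.3, SE 0.076), IDH1 (1.56, SE 0.12), CIT2 (1.5, SE 0.1) and LSC1 (0.99, SE 0.1). Among the leading falls were NDE1 (-2.94, SE 0.11), COX7 (-2.48, SE 0.15), CYC1 (-2.4, SE 0.12) and COX4 (-1.92, SE 0.063). With library totals 23 were higher and 22 lower. The interaction was lower for 29 members and higher for 0, beside 16.4% and 18.8% of all genes, with a median of -0.37. At an unadjusted p under 0.05 edgeR gave 30 lower and 0 higher, and DESeq2 and limma called 26 and 25 lower and 0 higher. Leaving out untreated wild type replicate 3 gave 27 lower and 1 higher. In contrast to the mbf1Δ interaction, all 9 complex IV genes were called, together with 7 of 11 in ATP synthase, 6 of 9 in complex III, 5 of 12 in the TCA cycle, 1 of 4 in complex II and 0 of 3 NADH dehydrogenases. Whether the complexes differ between the mutants in this respect was not tested. The contrast also runs along gene length. Of the 21 members with models under 900 bases, 18 were lower in gcn4Δ and 4 in mbf1Δ. Of the 29 longer members 11 and 19 were lower. Among all short genes 13.7% and 9.69% were lower, and among all longer genes 16.9% and 12.9%. CYC7 showed the largest difference. It had 1.98, 2.19 and 1.95 CPM in untreated gcn4Δ and 3.03, 3.56 and 3.48 CPM treated, so it rose in the mutant by 0.71 and in wild type by 2.75 (difference -2.05, SE 0.29, edgeR adjusted p = 6.54e-06). COX5B had 27.8, 32 and 32.5 CPM and then 26.1, 28.5 and 31.3 CPM in gcn4Δ, which overlapped, where wild type had risen (difference -1, SE 0.15, edgeR adjusted p = 1.5e-05). Its untreated level was already higher in gcn4Δ than in wild type, as given below. QCR7 (-0.96, SE 0.22) and COX13 (-0.96, SE 0.22) were also among the largest 5. IDH2 rose less (-0.7, SE 0.14), as did LSC2 (-0.66, SE 0.084). Part of such differences lies in the untreated cells. IDH2 had mean CPM of 442 untreated and 789 treated in gcn4Δ, against 301 and 872 in wild type. COX7 had 31 and 5.58 against 21.6 and 6.53, and COX12 had 30.4 and 8.75 against 22.7 and 11.3. LSC2, with 83.7 and 112 against 72 and 152, differed more in the treated cells. CIT1 (-0.12), CIT2 (-0.21), ACO1 (-0.2), CYC1 (-0.03), NDE1 (-0.04) and NDE2 (-0.36) gave no call, and COX5A was at the threshold (-0.28, SE 0.1, edgeR adjusted p = 0.037). The calls of COX5A and COX9 in this interaction were each lost on leaving out any of 13 of the 24 libraries.

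The 3 interactions subtract the same 6 wild type libraries, so their values are set side by side without a measure of likeness. For SDH2 the differences were -1.18 in gcn2Δ, -0.75 in gcn4Δ and -0.84 in mbf1Δ. For CIT1 they were -0.96, -0.12 and -0.81, and for COX12 -0.55, -0.78 and 0.04, of which only -0.78 was called. The authors' deposited table of the interactions called COX12 lower in gcn2Δ as well. Across the strains 9 members rose in all 4 and 25 fell in all 4. Each strain alone had 40.7% to 42.7% of all genes called higher and 40.1% to 42.6% lower. The share of all genes called alike in all 4 strains was not computed, so these counts have no background beside them. The 9 were CIT1, CIT2, IDH1, IDH2, LSC1, LSC2, MDH1, CYC7 and NDE2. FUM1, SDH1 and SDH2 rose in wild type and fell in gcn2Δ, though the FUM1 fall lost its call on leaving out any of 8 of the 24 libraries, and ATP1 rose in gcn4Δ (0.32) and fell in gcn2Δ (-0.47) and mbf1Δ (-0.51). With library totals FUM1 and SDH2 in gcn2Δ had 0.42 and 0.26 and ATP1 had 0.11 in gcn2Δ and in mbf1Δ, so these 4 falls turn with the scaling, while the gcn2Δ interactions of these 3 genes and the mbf1Δ interaction of ATP1 keep their direction.

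Among the other pathway genes RTG3 had lower responses in all 3 mutants, with differences of -1.07 in gcn2Δ, -1.18 in gcn4Δ and -0.79 in mbf1Δ (SE 0.13 each). HAP2 was lower in gcn2Δ (-0.52) and not called in gcn4Δ (-0.2) or mbf1Δ (-0.18). ROX1 was lower in gcn2Δ (-0.4) and mbf1Δ (-0.27), with 0.03 in gcn4Δ. RTG1 was higher in gcn2Δ (0.37) and mbf1Δ (0.48), with -0.15 in gcn4Δ. HAP1 (-0.18, 0.2 and -0.07), HAP3 (0.12, 0.3 and 0.42), HAP5 (0.15, 0.2 and 0.3), RTG2 (-0.18, -0.23 and -0.07) and MKS1 (-0.29, -0.08 and -0.09) were not called in gcn2Δ, gcn4Δ or mbf1Δ. MPC2, picked by its wild type rise, had 291, 294 and 283 CPM untreated and 805, 886 and 855 CPM treated in wild type, and 208, 217 and 207 CPM in treated gcn2Δ (difference -2, SE 0.096, edgeR adjusted p = 2.25e-13). Its differences in gcn4Δ and mbf1Δ were -1.3 and -1.62. The list counts stand beside the shares of all genes given above, 17.3%, 16.4% and 12.4% lower and 18.6%, 18.8% and 11.6% higher in gcn2Δ, gcn4Δ and mbf1Δ. Of 8 pyruvate entry genes 4 were lower in gcn2Δ, 3 in gcn4Δ and 3 in mbf1Δ, and of 12 glyoxylate genes and isoforms 4, 3 and 3 were lower and 1, 0 and 1 higher. Of 20 complex IV assembly genes 0 were lower in gcn2Δ, 2 in gcn4Δ and 0 in mbf1Δ, and 5, 1 and 5 were higher, among them COX17 in gcn2Δ (1.38, SE 0.3) and mbf1Δ (1.25, SE 0.32).

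In untreated cells the deletions of GCN2 and MBF1 gave no call among the members by edgeR. Among all genes 0.120% were called higher and 0.309% lower in gcn2Δ, and 0.0172% and 0.137% in mbf1Δ. At an unadjusted p under 0.05, 14 members were higher and 3 lower in gcn2Δ, and 2 higher and 0 lower in mbf1Δ. DESeq2 called 2 higher and 1 lower in gcn2Δ and 0 in mbf1Δ, and limma called 1 higher in gcn2Δ and 0 in mbf1Δ. Leaving out untreated wild type replicate 3 gave 11 higher and 5 lower in gcn2Δ, and leaving out MMS-treated mbf1Δ replicate 1, which is in neither group but in the shared fit, gave 5 higher and 1 lower. Without MMS-treated gcn2Δ replicate 3, likewise only in the shared fit, 1 was higher and 1 lower. In untreated gcn4Δ 11 members were higher and 4 lower, beside 9.19% and 10.1% of all genes. Short genes were called higher more often here. With models under 900 bases 7 members were higher and 0 lower, beside 19.6% and 3.30% of all such genes. Among longer models 4 were higher and 4 lower, beside 7.26% and 11.4%. COX5B had 27.8, 32 and 32.5 CPM against 18.5, 17.8 and 16.1 CPM in wild type, higher in every library (0.82, SE 0.11, edgeR adjusted p = 3.67e-05). IDH2 (0.55), QCR10 (0.52), COX7 (0.51) and CIT2 (0.46) followed, and ATP16, ATP17, ATP15, COX4, CIT1 and LSC2 were higher by 0.41 to 0.22. NDI1 (-0.44), COR1 (-0.41) and KGD1 (-0.2) were among the lower ones. The calls of CIT1, KGD1 and COX7 were lost on leaving out any of 5, 4 and 3 of the 24 libraries, and those of ATP16, ATP17 and NDI1 any of 2. These counts moved with single wild type libraries, from 7 to 16 higher and from 2 to 7 lower when 1 library was left out. The low ends were reached without untreated wild type replicates 1 and 2, and the high ends without replicate 3. Leaving out untreated gcn4Δ replicate 3 also gave 2 lower. With library totals, where all genes shift by 0.34, 39 members were higher and 1 lower.

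The core subunits of the chain are made from mitochondrial DNA, and their transcripts were read as a check beside the nuclear members. Yeast mitochondrial transcripts have no stable poly-A tail, so they are poorly captured in poly-A enriched libraries and their counts were low. COX1 had 35 to 57 counts per library in untreated wild type and COX2 had 7, 3 and 7. In the gcn4Δ libraries COX2 had 0, 0 and 0 counts untreated and 0, 1 and 0 treated, and COX3 had the same counts. Untreated wild type held 17 counts of COX2 and 46 of COX3 over 3 libraries. Set against a floor of 3 counts over the untreated gcn4Δ group, COX2 was at least 9.36-fold lower and COX3 at least 25.3-fold lower than in wild type. COB, cytochrome b, had 1 and 2 counts over the untreated and the treated gcn4Δ group, against 25 and 29 in wild type, and ATP6 had 3 and 5 against 16 and 33. Other mitochondrial transcripts remained. OLI1, subunit 9 of ATP synthase, had 319 and 299 counts over those gcn4Δ groups against 130 and 258 in wild type. COX1 had 112 and 66 against 135 and 120. The gcn4Δ libraries held more counts in total, so these raw counts do not compare levels. As CPM, OLI1 had 5.36 untreated and 3.23 treated in gcn4Δ against 3.61 and 5.26 in wild type. COX1 had 1.88 and 0.713 CPM against 3.75 and 2.45. In gcn2Δ and mbf1Δ, groups held 25 to 67 counts of COX2 and 22 to 44 of COX3. ATP8 had 0 counts in every library. COX1, COX2, COX3, COB and ATP6 were called lower in untreated gcn4Δ (edgeR adjusted p = 0.00621, 0.000779, 5.63e-06, 0.00152 and 0.00252). All 6 gcn4Δ libraries share this feature together with the low ribosomal RNA share, so it cannot be told apart from the deletion of GCN4 in the gcn4Δ comparisons above. Its part in those results was not tested.

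**Figure D5:**
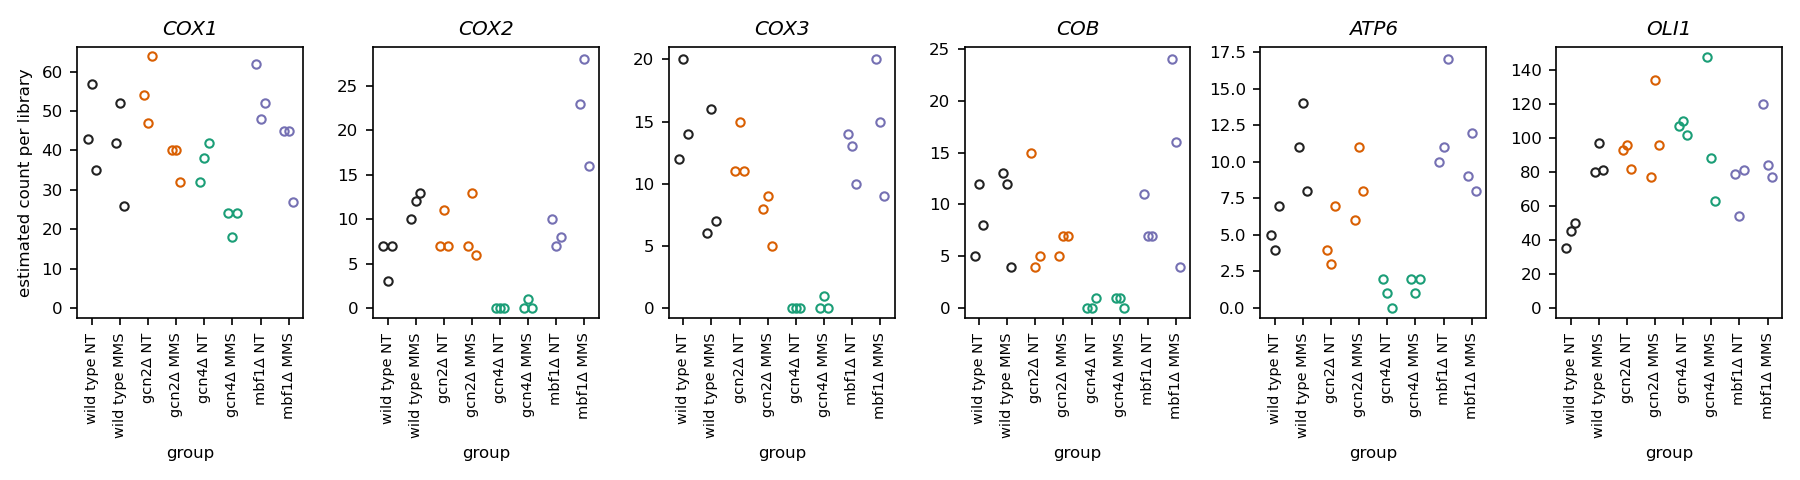
Estimated counts per library of 6 mitochondrially encoded subunits in the 8 groups (n = 3 each, NT for untreated, linear axes starting at 0). COX2, COX3, COB and ATP6 have 0 to 2 counts in every gcn4Δ library and 3 or more in every other library, while COX1 and OLI1 are present in all strains.

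The authors' deposited tables of the same interactions were set against these calls at their adjusted p under 0.05. For gcn2Δ the authors' deposited table held 38 members lower and 0 higher, of which 37 were also called lower here. For mbf1Δ the authors' deposited table held 26 lower and 1 higher, of which 23 and 1 were shared, and for gcn4Δ 25 lower and 0 higher, all 25 shared. No member was called in opposite directions.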

How the data were processed

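RNA was taken from 24 yeast cultures by hot phenol, poly-A selected and sequenced as paired reads, per the labels' protocols. The authors deposited Salmon tables with an estimated count, a TPM value, and a length and effective length per gene. They also deposited comparison tables with log2 fold changes, p-values and a mean-count score. FastQC 0.11.9, fastp, Salmon 1.10.1, DESeq2 1.38.3 and build R64 are named in the submitters' processing notes. Strand handling is not given in the sources used here.

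Estimated counts were rounded and tested with edgeR 4.0.16 (R 4.3.3). The steps were filterByExpr with a minimum count of 10, TMM scaling and an 8-group quasi-likelihood fit of all 24 libraries. Benjamini-Hochberg adjustment ran over all 5824 tested genes. The shares of all genes leave out the deleted gene in a comparison with a deletion strain, which makes 5823. An SE is the log2 change divided by the root of its F statistic. Calls are adjusted p under 0.05. DESeq2 1.42.0, limma 3.58.1, other scalings, a replicate block and leaving out libraries were alternatives. The procedure was tested on simulated data. P-values set each difference against the spread between libraries in the shared fit. They do not cover variation between isolates of a strain. All 50 members could be named. Leading members were up to 5 called rises and 5 falls per comparison plus pairs of alternative enzymes. The values of 1 member are not reported here, though it is in the counts. From other lists the 2 largest rises and falls were named, with every regulator. COX17 interactions, TIM11 and COX12 were chosen after their values were seen. Members and lists were chosen with earlier results of these data known. Replicate numbers did not pair samples. Promoter windows came from the R64 genome, since a ready promoter table was not used here.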

Additional observations from a re-analysis of the deposited data

Results flagged for a closer look

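The MMS response differed from that of wild type, by edgeR's interaction test with Benjamini-Hochberg adjustment, for 39 members in gcn2Δ, 29 in gcn4Δ and 24 in mbf1Δ. Of all genes 17.3%, 16.4% and 12.4% were called lower in these interactions, and 18.6%, 18.8% and 11.6% higher. The 3 comparisons share the wild type libraries. For 3 members the response was called in opposite directions in wild type and gcn2Δ. The share of all genes called so was not computed, so this count has no background beside it. FUM1, fumarase, had a log2 change of 0.32 in wild type and -0.17 in gcn2Δ, a difference of -0.49 (edgeR adjusted p = 0.00053). The difference kept its call whichever library was left out, while the gcn2Δ fall itself lost its call on leaving out any of 8 of the 24 libraries, 4 of them gcn2Δ libraries. SDH1, the flavoprotein of complex II, had 0.39 and -0.66, a difference of -1.05 (edgeR adjusted p = 0.00011). Its wild type rise lost the call without untreated wild type replicate 3. SDH2, its iron-sulfur subunit, had 0.85 and -0.33, a difference of -1.18 (edgeR adjusted p = 3.81e-08). Scaled by library totals, the gcn2Δ values of FUM1 and SDH2 were 0.42 and 0.26.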

How the results depend on the processing

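No called interaction of a member changed direction under any alternative run, while some uncalled ones near 0 crossed it when 1 library was left out (COX12 in mbf1Δ from -0.24 to 0.2). Scaling by library totals, which shifts all genes up, moved the counts of members called to 29 higher and 7 lower in wild type, 16 and 21 in gcn2Δ, 23 higher in gcn4Δ, and 21 and 12 in mbf1Δ. Untreated, it gave 22 higher in gcn2Δ, and 39 higher and 1 lower in gcn4Δ. It turned 33 single values from a called direction to 0 or the other sign. In wild type these were QCR2 0.31, QCR9 0, QCR10 0.03, RIP1 0.24, CYT1 0.27, ATP2 0.21, ATP7 0.25, ATP15 0.4, ATP16 0.02 and ATP17 0.16. In gcn2Δ they were FUM1 0.42, SDH2 0.26, SDH3 0.16, COR1 0.02, ATP1 0.11, ATP4 0.29, ATP5 0.27 and NDI1 0.2. In gcn4Δ they were COR1 0.17, COX9 0.18, ATP2 0.24 and ATP4 0.01, and untreated KGD1 0.13. In mbf1Δ they were SDH3 0.3, COR1 0.3, QCR8 0.14, CYT1 0.09, ATP1 0.11, ATP5 0.36, ATP7 0.36, ATP14 0.21, ATP15 0.01 and ATP17 0.07. The median change of the members was 0.37 on the TPM scale against -0.21 on log2 CPM in wild type, -0.15 against -0.7 in gcn2Δ, 0.09 against -0.49 in gcn4Δ and 0.14 against -0.55 in mbf1Δ. These shifts follow from the scaling itself. For untreated gcn2Δ, DESeq2 called 2 higher and 1 lower and limma 1 higher, where edgeR called 0, and the cause was not tested.

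Leaving out 1 library gave 15 to 16 members higher and 22 to 26 lower in wild type, 10 and 36 to 37 in gcn2Δ, 11 to 15 and 27 to 29 in gcn4Δ, and 11 to 12 and 31 to 32 in mbf1Δ. The interactions had 34 to 40 lower in gcn2Δ with 0 higher, 23 to 29 lower in gcn4Δ with 0 to 1 higher, and 19 to 25 lower in mbf1Δ with 1 higher. Untreated, gcn2Δ had 0 to 11 higher and 0 to 5 lower, gcn4Δ 7 to 16 and 2 to 7, and mbf1Δ 0 and 0. The replicate numbers did not pair samples, as deviations of same-numbered libraries had a median correlation of -0.0187 over 84 pairs of libraries from different groups, against 0.00323 over 168 pairs with different numbers. With the replicate block, 16 members were higher and 25 lower in wild type, and 36, 28 and 22 were lower in the gcn2Δ, gcn4Δ and mbf1Δ interactions. The offset by effective length, chosen after seeing the data, reversed no member. Low counts limit the mitochondrially encoded subunits.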
